A study of Mus musculus with 9 samples.

Results

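The 9 genes Elane, Mpo, Prtn3, Ctsg, Ms4a3, Fcnb, Gstm1, Hp and Trem3 encode the enzymes of the primary granules and other products of early granulocyte precursors. They were taken from the 37882 genes of the deposited expression table by symbol. The genes were chosen by their RPKM values in these same 9 libraries, so their levels and the differences between groups are a description. No p of a single member is given, and counts of members past a threshold stand only beside the share of all tested genes past it. All 9 had an RPKM (reads scaled to transcript length and library size) of at least 1 in at least 3 libraries, as did 12926 genes in all. Because that filter looks at the levels themselves, passing it supports nothing.

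RNA was sequenced from LSK cells of 9 mice, 3 in each of 3 groups and 1 library per mouse. LSK cells are the bone marrow fraction that lacks lineage markers and carries Sca1 and cKit, and they include the blood stem cells and multipotent progenitors. Lineage-positive cells were removed with antibodies to Mac1, Gr1, B220, CD3e and Ter119. The rtTA group carried only the doxycycline-dependent activator rtTA at Rosa26. The K9M group carried rtTA and, at Col1a1, a transgene for H3.3 with lysine 9 replaced by methionine (H3K9M), and the K36M group carried rtTA and the corresponding H3K36M transgene. All mice, controls included, were on a B6/129 background, were 6 to 8 weeks old and drank water with doxycycline at 2 mg/ml and sucrose at 10 mg/ml. A transgene for normal H3.3 was not among the groups, so in comparisons with rtTA the mutation and the presence of extra H3.3 cannot be told apart. The comparisons ask how LSK expression differs between each mutant and the control and between the mutants, and all of them share libraries: rtTA serves both mutants as control.

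Neutrophils store their antimicrobial proteins in granules that are filled in a fixed order as the cell matures. Primary (azurophil) granules are loaded first, at the promyelocyte stage, with myeloperoxidase and the neutrophil serine proteases. Transcription of those genes then stops, and genes for secondary and tertiary granule proteins, such as lactoferrin and gelatinase, take over in later precursors. Low levels of Mpo and Elane mRNA are known in multipotent progenitors that lean towards the granulocyte and monocyte lineage, before any granule is formed. C/EBP factors, PU.1, MYB and RUNX1 are known regulators of the primary granule genes.

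The promoters of the 4 classic primary granule genes are shown here because the values of these 4 enzymes are the ones described first and in most detail. RefSeq sequences on GRCm38.p6 run from 250 bases before to 50 bases after the transcription start, 5′ to 3′ on the strand of the gene. Of the 9 genes, 7 were matched to a RefSeq promoter, and Gstm1 had 2. The RefSeq start of Prtn3 lies inside the longer span that GENCODE gives the gene. Capitals mark matches, on either strand, to GAGGAA (a PU.1 core), TTNNGCAA (C/EBP), TGTGGT (RUNX) and TAACNG (MYB).
Elane, chr10:79886062-79886361, plus strand: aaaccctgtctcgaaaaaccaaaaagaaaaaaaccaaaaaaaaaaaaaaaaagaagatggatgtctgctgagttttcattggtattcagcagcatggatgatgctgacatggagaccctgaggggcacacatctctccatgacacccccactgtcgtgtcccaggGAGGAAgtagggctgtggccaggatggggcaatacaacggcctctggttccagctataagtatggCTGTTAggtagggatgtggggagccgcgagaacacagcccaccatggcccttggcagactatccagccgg
Prtn3, chr10:79879417-79879716, plus strand: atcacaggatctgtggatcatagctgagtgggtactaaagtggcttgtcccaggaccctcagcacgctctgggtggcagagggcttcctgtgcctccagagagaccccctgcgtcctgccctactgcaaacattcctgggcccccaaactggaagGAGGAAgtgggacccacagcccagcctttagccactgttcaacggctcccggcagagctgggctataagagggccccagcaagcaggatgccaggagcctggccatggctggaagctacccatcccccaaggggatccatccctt
Mpo, chr11:87793534-87793833, plus strand: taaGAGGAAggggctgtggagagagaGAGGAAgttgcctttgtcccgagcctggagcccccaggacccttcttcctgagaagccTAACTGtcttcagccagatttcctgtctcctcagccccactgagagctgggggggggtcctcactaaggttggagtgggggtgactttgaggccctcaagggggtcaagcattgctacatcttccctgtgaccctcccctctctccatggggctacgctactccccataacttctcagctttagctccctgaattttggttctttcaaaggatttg
Ctsg, chr14:56102525-56102824, minus strand: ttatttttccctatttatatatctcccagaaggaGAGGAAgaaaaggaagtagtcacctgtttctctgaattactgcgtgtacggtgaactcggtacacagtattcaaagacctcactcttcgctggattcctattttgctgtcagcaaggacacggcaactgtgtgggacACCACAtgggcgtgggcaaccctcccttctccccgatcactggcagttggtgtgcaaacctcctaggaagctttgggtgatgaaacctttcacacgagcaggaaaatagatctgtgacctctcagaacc

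Each of these 4 windows held GAGGAA. Counted from the transcription start, the match covered bases -85 to -80 in Elane, -95 to -90 in Prtn3 and -216 to -211 in Ctsg, and Mpo had one at -247 to -242 and another at -224 to -219. The MYB letters were found in Elane at -20 to -15 on the opposite strand and in Mpo at -166 to -161, and the RUNX letters in Ctsg at -79 to -74 on the opposite strand. Over the 8 promoters of the 7 matched genes, GAGGAA was in 5, against 28.3% of the 32851 RefSeq promoters of that length. The C/EBP letters were in 2 (Fcnb and Ms4a3) against 10.8%, the RUNX letters in 2 (Gstm1 and Ctsg) against 16.8%, and the MYB letters in 2 against 23.3%. No match shared a base with a match to another motif. A match is a description of the letters and not a binding site.

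Several facts of the libraries bear on every value below. Depth, read approximately from the steps between the lowest RPKM values, ranged from about 15860000 to 50310000 reads. The library of rtTA 3 stood apart for mature neutrophil RNA: the summed RPKM of the 16 listed secondary granule and mature neutrophil genes lay between 776 and 6701 in the rtTA libraries, between 506 and 1179 in K9M and between 224 and 503 in K36M. The only one of those 16 at 0 in any library was Fpr1, in K9M 2. The LSK label was checked by Kit, at 88.1, 95.5 and 102 RPKM in rtTA, 86.1, 81.1 and 92.0 in K9M and 53.3, 71.1 and 74.2 in K36M, and Ly6a (Sca1), at 292, 125 and 119.8, 172, 125 and 159.6 and 192, 154 and 119 in the same order. The 12 LSK and stem cell markers had a summed RPKM of 749 to 1004 in the rtTA libraries, 836 to 940.1 in the K9M libraries and 683 to 689.5 in the K36M libraries, and none was at 0. In such sorted bulk samples a larger share of granulocyte precursors and more mRNA per cell cannot be told apart.

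**Figure D1:**
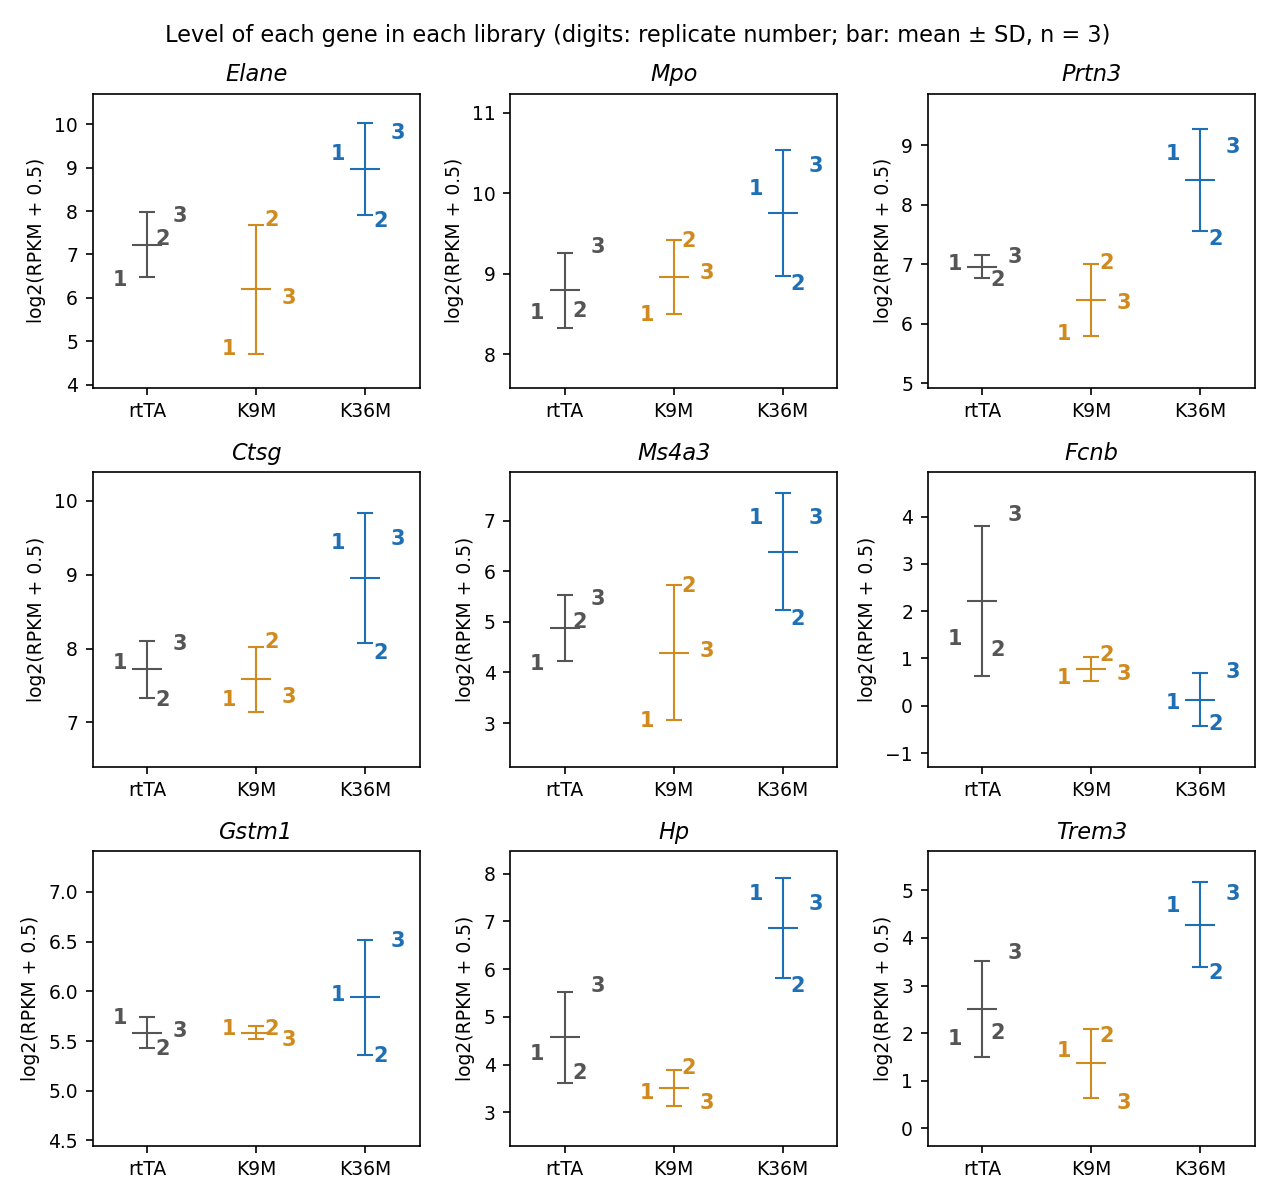
Level of each of the 9 genes in each library, as log2(RPKM + 0.5) on the vertical axis, by group; digits are replicate numbers, and bars give the mean ± SD of 3 libraries. Replicate 2 is the lowest K36M library in every panel, and Fcnb alone has its highest library in rtTA.

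The primary granule enzymes were highest in 2 of the 3 K36M libraries. Myeloperoxidase (Mpo, chr11:87793581-87804413 on mm10), the heme enzyme that makes hypochlorous acid from hydrogen peroxide and chloride, was the most abundant member per transcript length in every group. Its level, given like all others in the order of replicates 1, 2 and 3, was 365, 370.4 and 642 RPKM in rtTA, 358, 676 and 514 in K9M and 1065, 466 and 1292 in K36M. K36M 1 and K36M 3 lay above every other library, while K36M 2 lay among the rtTA and K9M libraries, so the groups overlapped. By mean RPKM Mpo ranked 88th in rtTA, 80th in K9M and 42nd in K36M among 21226 protein-coding genes.

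Neutrophil elastase (Elane, chr10:79886247-79888215), a serine protease that degrades bacterial and matrix proteins, had the widest spread of the granule enzymes. Its level was 84.7, 165 and 236 RPKM in rtTA, 27.9, 219.8 and 63.3 in K9M and 634, 218 and 898 in K36M. The span from its lowest library, K9M 1, to its highest, K36M 3, was 32.2-fold, against 3.61-fold for Mpo. The 3 groups overlapped: rtTA 3 and K9M 2 were both above K36M 2, and K9M 2 lay among the rtTA values. As a share of the Mpo level in the same library, Elane was 23.2%, 44.4% and 36.7% in the rtTA libraries, 7.79%, 32.5% and 12.3% in the K9M libraries, and 59.5%, 46.8% and 69.5% in the K36M libraries.

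Proteinase 3 (Prtn3, chr10:79874476-79883174), a close relative of elastase, is its neighbour on chromosome 10, where 3072 bases separate the 2 genes. It was at 128, 106 and 138 RPKM in rtTA, 56.1, 129 and 80.8 in K9M and 459, 171 and 501 in K36M. All 3 K36M libraries were above all 6 others, and Prtn3 was the only one of the 4 granule enzymes for which that held. Cathepsin G (Ctsg, chr14:56099881-56102574), a serine protease with chymotrypsin-like specificity, was at 222, 157 and 266 RPKM in rtTA, 158, 273 and 162 in K9M and 691, 245 and 717 in K36M. Here K36M 2 fell between rtTA 1 and rtTA 3, and K9M 2 exceeded every rtTA library, so no pair of groups was separate.

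Both Mpo and Prtn3 share exonic sequence with a gene on the other strand. Mpo overlaps the antisense transcript Gm11505 over 512 exonic bases and Prtn3 overlaps Plppr3 over 159. Whether reads were counted by strand is not stated in the sources used here, and reads of those stretches cannot be assigned. No other gene matched Elane, Prtn3, Ctsg, Ms4a3, Fcnb, Hp or Trem3 at 90% identity or more over at least 100 bases.

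The group means set these values beside their error. In K36M the mean was 583 ± 343 RPKM for Elane (SD, n = 3), against 162 ± 75.5 in rtTA and 104 ± 102 in K9M. For Mpo the means were 941 ± 427, 459 ± 158 and 516 ± 159 in the same order of groups. K36M ranked first by mean for both, but the SD of K36M reached across much of the distance to rtTA. Prtn3 averaged 377 ± 179.7, 124 ± 16.4 and 88.7 ± 37.3, and Ctsg averaged 551 ± 265, 215 ± 54.6 and 198 ± 65.4. The order K36M, rtTA, K9M held for Elane, Prtn3 and Ctsg, and for Mpo K9M and rtTA changed places. The rtTA and K9M libraries overlapped for all 4.

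Ms4a3, Hp and Trem3 are other genes of early granulocyte precursors. Ms4a3 (chr19:11629496-11640851) encodes a multi-pass membrane protein whose expression marks granulocyte-monocyte progenitors. It was at 17.4, 31.6 and 43.5 RPKM in rtTA, 7.72, 51.5 and 21.0 in K9M and 132, 32.8 and 132 in K36M. Only K36M 1 and K36M 3 stood clear of the rest, and K9M 1 was the lowest library.

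Haptoglobin (Hp, chr8:109575128-109579172), which binds free haemoglobin and is stored in neutrophil granules as well as secreted by the liver, showed the largest log2 difference of the 9 genes between K36M and K9M. Its level was 18.3, 13.7 and 49.4 RPKM in rtTA, 10.0, 14.7 and 8.70 in K9M and 188, 49.8 and 164 in K36M. The lowest K36M library, K36M 2, was just above the highest rtTA library, rtTA 3, and rtTA 3 in turn was well above rtTA 1 and rtTA 2. The mean was 134 ± 73.8 RPKM in K36M, 27.1 ± 19.4 in rtTA and 11.1 ± 3.13 in K9M (SD, n = 3). Hp ranked 362nd among protein-coding genes in K36M, against 2153rd in rtTA and 4904th in K9M.

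Trem3 (chr17:48247777-48258841), a receptor of the triggering receptor expressed on myeloid cells family that signals through an adaptor with an activating motif, followed Hp at a lower level. It was at 3.16, 3.49 and 12.3 RPKM in rtTA, 2.58, 3.32 and 0.953 in K9M and 25.0, 9.07 and 29.7 in K36M. K36M was separate from K9M, and rtTA 3 exceeded K36M 2. Its value in K9M 3 rested on about 15 reads. Trem1, the gene 852 bases away, was at 1.12, 0.867 and 2.30 RPKM in rtTA, 1.03, 0.669 and 1.03 in K9M and 6.58, 1.95 and 4.82 in K36M, with the same 2 K36M libraries highest.

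Gstm1 and Fcnb differed from these 7, Gstm1 in size and Fcnb in direction. Gstm1 (chr3:108012255-108017973), a glutathione transferase that conjugates electrophilic compounds, had its highest values in the same 2 K36M libraries over a narrower span, at 52.5, 42.3 and 48.0 RPKM in rtTA, 48.7, 48.6 and 44.9 in K9M and 61.9, 40.2 and 90.4 in K36M. K36M 2 was its lowest library of all and K36M 3 its highest, 2.25-fold apart. Its values are uncertain, because 4 other genes matched it at 90% identity or more, the nearest being Gstm2-ps1 at 97.9% over 657 bases, and the rule for reads that fit several places is not given in the sources used here.

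Ficolin B (Fcnb, chr2:28076378-28084885), a lectin that recognises sugars on microbes, went the other way. It was at 2.17, 1.75 and 15.9 RPKM in rtTA, 0.998, 1.60 and 1.09 in K9M and 0.540, 0.264 and 1.15 in K36M. Both mutant groups lay below all 3 rtTA libraries, and rtTA 3, the library with the most mature neutrophil RNA, was far above rtTA 1 and rtTA 2. The K36M 2 value rested on about 13.1 reads. Fcna, the other ficolin gene of the mouse, was at 0.607, 0.993 and 2.77 RPKM in rtTA and did not pass the filter.

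**Figure D2:**
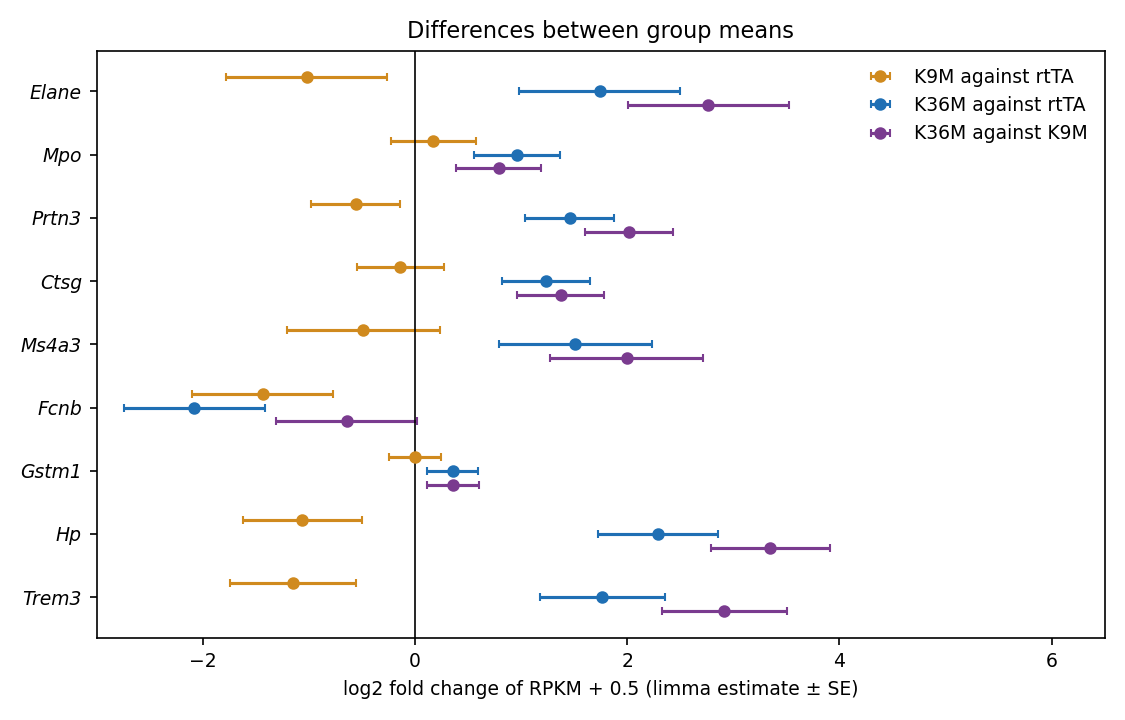
Differences between group means for the 9 genes, as log2 fold changes of RPKM + 0.5 estimated with limma over all 9 libraries; bars are ± 1 SE and colours are the 3 comparisons. Estimates for K36M lie right of 0 for 8 genes against either group, and Fcnb lies left of 0 in all 3 comparisons.

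The fold changes below come from 1 limma fit to log2(RPKM + 0.5) over all tested genes, and the scale understates differences at low levels. Against rtTA, K36M was 3.61-fold by the ratio of mean RPKM for Elane, a log2 fold change of 1.74 (SE 0.76). The log2 fold change was 1.46 (SE 0.42) for Prtn3, 1.23 (SE 0.41) for Ctsg and 0.96 (SE 0.40) for Mpo. Among the other early genes it was 2.29 (SE 0.56) for Hp, 1.77 (SE 0.59) for Trem3 and 1.51 (SE 0.72) for Ms4a3. Gstm1 had 0.36 (SE 0.24) and Fcnb -2.08 (SE 0.67). In all, 8 of the 9 estimates were positive, beside 6755 of the 12926 tested genes, with a median of 1.46 against 0.02 over all tested genes.

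In K36M against rtTA, limma called 0 of the 9 genes at a Benjamini-Hochberg adjusted p under 0.05, beside 1.50% of all tested genes. At an unadjusted p under 0.05 there were 7, beside 19.1% of tested genes. Groups did not overlap with K36M higher for 2 members (Prtn3 and Hp), beside 11.6% of tested genes, and with K36M lower for 1 (Fcnb), beside 10.6%. Nothing is read from these counts, since the genes were chosen with the same values known. Without K36M 2, limma called 3 (Ctsg, Hp and Prtn3), beside 402 of the 12926 tested genes, and the median was 1.95. Leaving out rtTA 3 moved Fcnb from -2.08 to -1.17, with the median of the 9 genes at 1.54. A block by replicate number left the count at 0, beside 301 of the tested genes.

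In K9M the estimates against rtTA were mostly below 0, with wide errors. The log2 fold change was 0.17 (SE 0.40) for Mpo, -0.14 (SE 0.41) for Ctsg, -0.56 (SE 0.42) for Prtn3 and -1.02 (SE 0.76) for Elane. It was -0.49 (SE 0.72) for Ms4a3, -1.06 (SE 0.56) for Hp, -1.15 (SE 0.59) for Trem3, -1.44 (SE 0.67) for Fcnb and -0.00070 (SE 0.24) for Gstm1. Only Mpo was positive, beside 6627 of the 12926 tested genes, and the median was -0.56 against 0.01 over all tested genes. Limma called 0 of the 9 genes, beside 0.116% of tested genes, and 0 had an unadjusted p under 0.05, beside 7.11%. No member had K9M above rtTA without overlap, beside 7.09% of tested genes, and 1 (Fcnb) had it below, beside 5.43%. Without K9M 2 the median was -1.14. Leaving out single libraries turned the sign of the small Mpo, Ctsg, Ms4a3 and Gstm1 estimates: without K9M 1, for example, Ms4a3 was at 0.19.

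For Elane, Prtn3, Ctsg, Ms4a3, Hp and Trem3 the difference between the mutants was wider than that of K36M from rtTA. The ratio of mean RPKM, K36M over K9M, was 12.03 for Hp, 9.30 for Trem3, 5.63 for Elane and 4.25 for Prtn3. On the log2 scale K36M exceeded K9M by 3.35 (SE 0.56) for Hp, 2.92 (SE 0.59) for Trem3, 2.76 (SE 0.76) for Elane and 2.02 (SE 0.42) for Prtn3. The same difference was 2.00 (SE 0.72) for Ms4a3, 1.37 (SE 0.41) for Ctsg, 0.79 (SE 0.40) for Mpo, 0.36 (SE 0.24) for Gstm1 and -0.64 (SE 0.67) for Fcnb. Again 8 of 9 were positive, beside 6602 of the 12926 tested genes, with a median of 2.00 against 0.01 over all tested genes.

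In K36M against K9M, limma called 3 of the 9 genes (Hp, Prtn3 and Trem3), all higher in K36M, beside 2.52% of tested genes called in either direction and 1.02% called higher. The same 3 were the members whose K36M libraries all exceeded all K9M libraries, beside 14.5% of tested genes, and 0 were separate in the other direction, beside 13.4%. Those calls rested on few libraries. Without K36M 1, K36M 3, K9M 1, K9M 2 or K9M 3, limma called 0 of the 9. Over the 12926 tested genes those fits called from 15 (without K36M 3) to 80 (without K9M 2). It called 1 member (Hp) without rtTA 2, beside 289 tested genes, and 2 (Hp and Trem3) without rtTA 3, beside 222. Without K36M 2 it called 4, which added Ctsg, beside 509. With a block by replicate number Hp and Trem3 were called and Prtn3 was not, beside 595 tested genes.

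The members shared an order of libraries within each group. K36M 2 was the lowest of the 3 K36M libraries for 9 of 9 members, a place it took for 33.4% of all tested genes. Among the rtTA libraries rtTA 3 was highest for 8 of 9, against 32.6% of tested genes, and among the K9M libraries K9M 2 was highest for 8 of 9, against 33.5%. The exception was Gstm1, which was highest in rtTA 1 and in K9M 1. The spread inside K36M was wide, and Elane, for example, was at 898 RPKM in K36M 3 and 218 in K36M 2. K36M 1 and K36M 3 were the 2 highest libraries of all 9 for 8 members, every one but Fcnb, against 11.4% of tested genes. With libraries set side by side by replicate number, K36M was above its rtTA library in all 3 pairs for 7 members, against 27.0% of tested genes. Fcnb was below in all 3, against 24.0%, and Gstm1 was above in 2 of the 3. These orders use the values that chose the genes, and nothing is read from them.

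Likeness between genes was measured as the mean absolute difference, over the 9 libraries, between log2(RPKM + 0.5) profiles centred on their own means, where 0 is an identical profile. From the mean profile of the other 8 members, Prtn3 and Ctsg differed least, at 0.27 each, followed by Mpo at 0.42 and Ms4a3 at 0.48. Trem3 was at 0.62, Elane and Gstm1 at 0.66 and Hp at 0.76. Fcnb was at 1.35. The median of all tested genes, measured from the mean profile of all 9 members, was 0.76. Fcnb was farther away than that, and Hp was about level with it (0.761 against 0.758). The measure counts the size of differences as well as the order of libraries, so the value of Hp does not show a different order. Hp had the largest log2 difference of the 9 genes between K36M and K9M, and K36M 1 and K36M 3 were its 2 highest libraries. Measured from the mean profile of the mature neutrophil list, Fcnb was at 0.37, Gstm1 at 0.92 and the other 7 members between 1.23 and 1.86, with a median over all tested genes of 0.88. By this measure the profile of Fcnb was nearer to the mature neutrophil genes than to the genes it is grouped with.

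Outside the members, the tested protein genes whose profile differed least from the members' mean were Hdc at 0.17, Mtus1 at 0.17, Sgms2 at 0.21, Gda at 0.22 and Clec5a at 0.22. Hdc, histidine decarboxylase, was at 2.49, 3.34 and 4.98 RPKM in rtTA, 1.63, 5.34 and 2.39 in K9M and 11.2, 4.56 and 12.5 in K36M. Its levels were lower than those of the granule enzymes, but its highest libraries were also K36M 1 and K36M 3, and K9M 2 was the highest of K9M. Clec5a, a myeloid lectin receptor, was at 0.753, 0.585 and 3.08, 0.475, 1.05 and 0.351 and 2.34, 0.979 and 3.68 RPKM in the same order, with rtTA 3 above K36M 1.

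**Figure D3:**
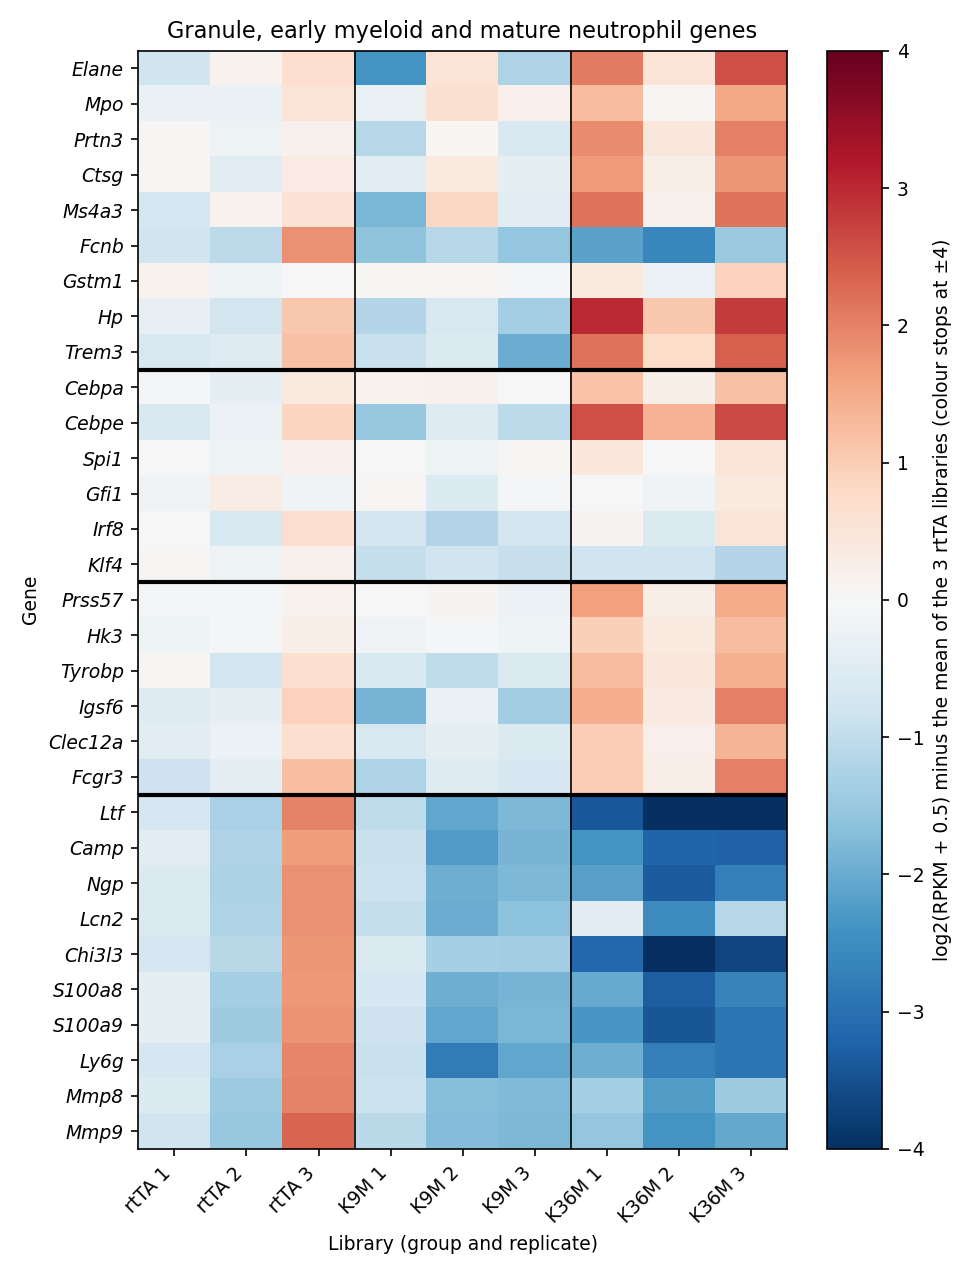
Colour gives log2(RPKM + 0.5) in each library (columns) minus the mean of the 3 rtTA libraries for each gene (rows); rows are the 9 genes, myeloid transcription factors, other early myeloid genes and mature neutrophil genes. The rows of Elane to Ms4a3, Hp and Trem3 are darkest red in K36M 1 and K36M 3, and Fcnb resembles the mature neutrophil rows, which are red in rtTA 3 and blue in K36M.

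The proteases need partner proteins: cathepsin C (Ctsc) trims their propeptides, serglycin (Srgn) packs them into the granule, calreticulin (Calr) helps Mpo to fold in the endoplasmic reticulum, Rab27a directs granule release, and serpins such as Serpinb1a inhibit them. Of 16 such genes, all tested, 1 rose in K36M against rtTA (beside 74 of the 12926 tested genes). This was Calr, with a log2 fold change of 0.82 (SE 0.15, limma adjusted p = 0.0398), with 288, 278 and 291 RPKM in rtTA and 556, 398 and 581 in K36M. Its adjusted p ran from 0.0123 to 0.157 over the alternatives and stayed under 0.05 in 1 of the 9 fits that left out a library, the one without K36M 2. Ctsc and Srgn, named for their roles after their values were seen, differed by 0.04 (SE 0.15) and 0.27 (SE 0.17) between K36M and rtTA. Ctsc was at 18.5, 15.9 and 16.9 RPKM in K36M and 21.7, 13.8 and 15.4 in rtTA, and K36M lay within the rtTA range. In K36M against K9M only Rab27a rose, beside 132 of the 12926 tested genes. It rose by 1.02 (SE 0.19, limma adjusted p = 0.0308), a call lost without K36M 1, K36M 3 or any 1 K9M library (adjusted p up to 0.126 over the alternatives). The median of the 16 was 0.16 in K36M against rtTA and 0.09 in K36M against K9M.

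Of 22 other genes of promyelocytes and early myeloid cells, 20 were tested and 0 passed limma's threshold in K36M against rtTA. An unadjusted p under 0.05 was found for 9, beside 19.1% of all tested genes. The median log2 fold change of the 20 was 0.75. Of the 20, 17 were positive, beside 6755 of the 12926 tested genes. Hk3, a myeloid hexokinase, differed by 0.86 (SE 0.20, limma adjusted p = 0.0774). Prss57, a further neutrophil serine protease, differed by 1.14 (SE 0.31, limma adjusted p = 0.11), with 5.98, 5.99 and 7.01 RPKM in rtTA and 20.9, 7.68 and 18.7 in K36M. With the replicate block Tyrobp, the adaptor of Trem receptors, passed at an adjusted p of 0.0356, against 0.153 without it. Without K36M 2, 6 of the 20 were called higher, beside 213 of the 12926 tested genes, against 74 with every library.

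In K36M against K9M, 2 of these 20 rose and 0 fell, beside 132 higher and 194 lower of the 12926 tested genes. The list median was 0.94. Tyrobp rose by 1.79 (SE 0.35, limma adjusted p = 0.0368), from 57.2, 43.2 and 57.9 RPKM in K9M to 211, 121 and 234 in K36M. Hk3 rose by 0.98 (SE 0.20, limma adjusted p = 0.0444). Both calls were lost without K36M 1, K36M 3 or any 1 K9M library, with adjusted p over the alternatives of up to 0.141 for Tyrobp and 0.148 for Hk3, and that of Hk3 also without rtTA 2 or rtTA 3. Without K36M 2, 8 of the 20 were called higher, beside 265 of the 12926 tested genes, against 132 with every library. In K9M against rtTA, 0 passed and 2 had an unadjusted p under 0.05, beside 7.11% of tested genes. The 2 nearest were Nkg7 at 0.44 (limma adjusted p = 0.509) and Ly6c2 at -1.62 (limma adjusted p = 0.642). Of the 20 estimates 3 were positive, and the list median was -0.31.

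Among 17 myeloid transcription factors, all tested, the clearest difference was in Cebpe, the C/EBP factor of the promyelocyte to myelocyte step. Its level was 3.46, 4.61 and 10.5 RPKM in rtTA, 1.64, 3.72 and 2.44 in K9M and 35.3, 15.5 and 37.0 in K36M, and all 3 K36M libraries were above all others. Cebpe rose in K36M against K9M by 3.22 (SE 0.44, limma adjusted p = 0.0148). That call held in all 9 other settings tried with every library included, and was lost without K36M 1, K36M 3, K9M 1 or K9M 3, where the adjusted p was 0.0705, 0.0728, 0.0594 and 0.0608. In K36M against rtTA, Cebpe differed by 2.20 (SE 0.44, limma adjusted p = 0.0503), short of the threshold, with a range of 0.0254 to 0.21 over the alternatives. Cebpa, the factor that first opens the granulocyte programme, was named for that role after its values were seen. It was at 24.9, 20.2 and 34.4 RPKM in rtTA, 28.5, 29.2 and 26.3 in K9M and 57.7, 30.7 and 59.1 in K36M. Its difference between K36M and rtTA was 0.85 (SE 0.26, limma adjusted p = 0.136), with an adjusted p of 0.0274 without K36M 2.

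Of the 17 factors, 1 fell in K36M against rtTA, beside 120 of the 12926 tested genes. Klf4, a factor of monocyte development, dropped by 0.92 (log2, SE 0.16, limma adjusted p = 0.0279), from 5.50, 4.64 and 6.05 RPKM in rtTA to 2.87, 2.88 and 2.12 in K36M. It was also at 2.52, 2.90 and 2.62 in K9M, a difference of -0.88 from rtTA that did not pass (limma adjusted p = 0.113). The Klf4 call in K36M remained in 1 of the 9 fits that left out a library, the one without K36M 2. The median of the 17 factors was -0.0016 in K36M against rtTA and 0.26 in K36M against K9M.

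**Figure D4:**
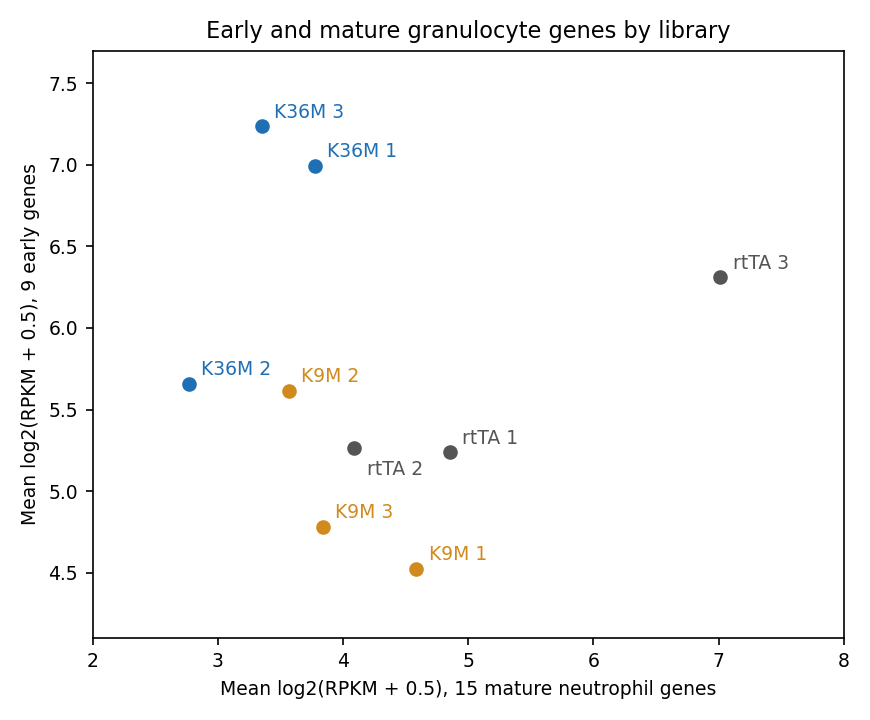
Mean log2(RPKM + 0.5) of the 9 early genes (vertical axis) against that of the 15 tested mature neutrophil genes (horizontal axis), 1 point per library. The K36M libraries lie at the left, with K36M 1 and K36M 3 at the top, and rtTA 3 lies far to the right. On the horizontal axis K9M 2 lies among the K36M libraries and K9M 3 lies close to K36M 1.

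Genes of later neutrophil stages did not share the direction of the granule enzymes in K36M. Of 16 secondary granule and mature neutrophil genes 15 were tested, and in K36M against rtTA 2 of the 15 estimates were positive. By limma 2 of them fell and 0 rose, beside 120 lower and 74 higher of the 12926 tested genes. The median log2 fold change was -2.54 against 0.02 over all tested genes. Lactoferrin (Ltf) dropped by 4.01 (SE 0.73, limma adjusted p = 0.037), from 42.6, 27.8 and 272 RPKM in rtTA to 6.05, 2.61 and 3.39 in K36M, and it was at 34.1, 15.8 and 19.3 in K9M. Chi3l3, a chitinase-like protein, dropped by 3.66 (SE 0.65, limma adjusted p = 0.0341), from 28.4, 20.8 and 156 RPKM to 4.74, 2.05 and 3.10. Both were still called without rtTA 3, at an adjusted p of 0.0444 for Ltf and 0.0394 for Chi3l3, with the smaller differences of -3.02 and -2.77, and the list median was then -1.56. Both calls were lost without rtTA 1 or any 1 library of K36M or K9M, with adjusted p over the alternatives of up to 0.141 for Ltf and 0.131 for Chi3l3. In K36M against K9M, 0 of the 15 passed limma's threshold, and the median was -0.61. An unadjusted p under 0.05 was found for 5, beside 18.8% of all tested genes. The 2 with the smallest p were Chi3l3 at -2.56 (SE 0.65, limma adjusted p = 0.0776) and Ltf at -2.38 (SE 0.73, limma adjusted p = 0.126). Over the alternatives both passed only without rtTA 3 (limma adjusted p 0.0155 and 0.0279) and with only the 2 groups compared. The directions were mixed: 4 of the 15 estimates were positive, among them Cxcr2 at 1.44 (SE 0.47) and Itgam at 1.01 (SE 0.42). With the replicate block limma called Cxcr2 and Itgam, both higher (adjusted p 0.0465 and 0.0416), and 0 lower. No pairing of libraries was taken for K36M against K9M, so nothing is drawn from those block calls. In K9M against rtTA, 0 passed, 3 had an unadjusted p under 0.05, beside 7.11% of tested genes, and the median was -1.53, or -0.62 without rtTA 3.

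The balance of early over mature genes can be read within each library. The mean log2(RPKM + 0.5) of the 9 early genes minus that of the 15 mature genes was 0.39, 1.17 and -0.70 in the rtTA libraries. It was -0.06, 2.05 and 0.94 in the K9M libraries, and 3.22, 2.89 and 3.89 in the K36M libraries. K36M 2, whose early genes were at the level of K9M 2, still had a larger difference than any rtTA or K9M library, and its mature genes were the lowest of all. As a percentage of the Elane level in the same library, Ltf was at 50.3%, 16.9% and 115% in the rtTA libraries, 122%, 7.21% and 30.4% in the K9M libraries, and 0.956%, 1.2% and 0.378% in the K36M libraries. Both levels are per transcript length, and the 9 genes entered with their values known.

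Of 38 paralogs and cluster neighbours of the members 20 were tested. The log2 fold change was positive for 14 of the 20 in K36M against rtTA, with a median of 0.16, and for 13 in K36M against K9M, with a median of 0.20. K36M 1 and K36M 3 were the 2 highest libraries for 8 of the 20 (Prss57, Palm, Med16, R3hdm4, Mcpt8, Bzrap1, Ms4a6c and Trem1), against 11.4% of tested genes. Mcpt8, a basophil protease related to Ctsg, was at 8.99, 7.68 and 17.4 RPKM in rtTA, 12.4, 10.7 and 11.2 in K9M and 35.6, 11.2 and 19.97 in K36M, and Ms4a6c, a relative of Ms4a3, was at 30.8, 11.3 and 28.6, 9.36, 7.57 and 12.4 and 40.9, 14.7 and 47.1. In both, K36M 2 lay below rtTA 3. Cfd, the serine protease gene 2637 bases beyond Elane, was at 0 in rtTA 1 and K9M 3 and reached at most 0.621 RPKM, in K36M 1. Lpo and Epx, the peroxidase genes related to Mpo and near it on chromosome 11, were under 1 RPKM in every library. Bzrap1 (Tspoap1), on the other side of Mpo, rose in K36M against rtTA by 1.38 (SE 0.27, limma adjusted p = 0.048, and 0.0537 with the replicate block). It was at 0.853, 1.35 and 0.764 RPKM in rtTA and 2.79, 2.49 and 5.16 in K36M, and against K9M it rose by 1.35 (SE 0.27, limma adjusted p = 0.0415). The first call held in 1 of the 9 fits without a library (that without K36M 2) and the second in 3, with adjusted p over the alternatives of up to 0.155 and 0.147. Gstm7, a relative of Gstm1, fell in K36M against K9M, by 1.14 (SE 0.22, limma adjusted p = 0.0372), a call lost without K36M 1, K36M 3, K9M 1, K9M 3 or rtTA 3 (adjusted p up to 0.138 over the alternatives).

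Markers of other cells moved with some of these genes. The 10 monocyte, macrophage and dendritic markers, of which 8 were tested and none was at 0, had a summed RPKM of 74.0 to 147 in the rtTA libraries, 60.0 to 75.4 in the K9M libraries and 67.0 to 108 in the K36M libraries. Cx3cr1 rose by 2.15 and Ly86 by 1.95 in K36M against K9M (limma adjusted p = 0.0328 and 0.038), both lost without K36M 1, K36M 3 or any 1 K9M library (adjusted p up to 0.130 and 0.145 over the alternatives). Ly86 was at 6.13, 4.53 and 5.26 RPKM in K9M and 27.3, 12.5 and 29.9 in K36M, with K36M 2 lowest of its group as for the 9 genes. Over the 8 tested, 4 estimates were positive in K36M against K9M, with a median of 0.22, and 5 in K36M against rtTA, with a median of 0.11. Cx3cr1 also passed against rtTA with the replicate block (adjusted p 0.0331, against 0.135 without it). Cd68, a macrophage lysosomal protein, fell against rtTA by 1.34 (limma adjusted p = 0.0427), a call that held in 1 of the 9 fits without a library. Of the 12 stem cell and LSK markers, Esam fell in K36M against K9M by 0.94 (SE 0.17, limma adjusted p = 0.03), also lost without K36M 1, K36M 3 or any 1 K9M library (up to 0.126 over the alternatives), and the list median was -0.50 against either group. Kit was -0.54 (SE 0.14, limma adjusted p = 0.0918) in K36M against rtTA. The part of more committed cells within the sort in the levels of the 9 genes was not tested.

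Markers of the remaining lineages gave few calls. The 8 erythroid markers, none at 0, had a summed RPKM of 80.1 to 131 in the rtTA libraries, 116 to 214 in the K9M libraries and 166 to 296 in the K36M libraries. Of 7 tested, Hbb-bt, a beta globin, rose by 3.64 in K36M against rtTA and by 3.10 against K9M (limma adjusted p = 0.0267 and 0.0336), calls that held in 4 of the 9 fits without a library in either comparison. The other listed beta globin, Hbb-bs, differed by 0.53 and -0.33 in the same comparisons (limma adjusted p = 0.29 and 0.541). How reads that match both genes were handled is not stated. Hbb-bt was at 9.80, 12.4 and 14.4 RPKM in rtTA, 40.1, 23.7 and 5.66 in K9M and 206, 181 and 101 in K36M. Without it the other 7 summed to 70.3 to 117 RPKM in rtTA, 111 to 191 in K9M and 64.8 to 115 in K36M. The 7 mast cell and basophil markers summed to 40.0 to 79.8, 53.9 to 64.9 and 36.5 to 61.1 RPKM in rtTA, K9M and K36M, with Cma1 and Gzmb at 0 in some libraries. Among 3 tested, Cpa3, the mast cell carboxypeptidase, fell by 0.92 in K36M against K9M (limma adjusted p = 0.0219, lost without K36M 1, K36M 3 or any 1 K9M library). The 8 B lineage markers summed to 39.3 to 53.3, 19.9 to 25.1 and 28.3 to 37.1 RPKM, and limma called 0 of 6 tested in any comparison. At an unadjusted p under 0.05 there were 3, 5 and 4 in K36M against rtTA, K9M against rtTA and K36M against K9M. The shares of all tested genes were 19.1%, 7.11% and 18.8%. The 7 T and NK markers summed to 16.1 to 38.4, 22.3 to 23.9 and 12.2 to 25.1 RPKM, with Cd3e, Cd3g and Cd2 at 0 in some libraries and 1 gene tested, which was not called and had no unadjusted p under 0.05. In K9M against rtTA, limma called 0 genes of any of these lists.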

How the data were processed

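The authors deposited 1 table of RPKM values for 37882 genes and 9 libraries (reads divided by transcript length and library size). The submitters' processing notes name CASAVA 1.7, STAR and mm10. The annotation, the STAR version and how strand and multiply matching reads were handled are not stated there. The molecule is labelled polyA RNA although the kit named is one for total RNA. Of the identifiers, 37607 were matched to GENCODE M21 on mm10, the source of coordinates and exonic lengths, and 12058 genes were at 0 in every library. No pair of libraries held identical values. Depth was approximated from the steps of the lowest values, of which 50.8% to 52.5% were whole reads within a tolerance of 0.02, too few for a count test.

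Groups came from the sample titles. The analysis used genes that reached an RPKM of 1 in at least 3 libraries, as log2(RPKM + 0.5) with limma 3.58.1 in R 4.3.3: 3 group means over all 9 libraries, eBayes with a mean-variance trend, 6 residual and 3.14 prior degrees of freedom, two-sided tests, and calls at a Benjamini-Hochberg adjusted p under 0.05 over all 12926 tested genes. The fit was also run on simulated data with independent noise of equal spread in every group. The libraries here differ in spread, and same-number libraries of K36M and rtTA deviated together, so nothing is drawn from that run. The 9 genes and the 11 related lists were chosen with earlier results of these data known. The other named genes are Kit and Ly6a, from each list and comparison up to 4 called genes with the smallest p or else 2 uncalled ones, paralogs and neighbours of the 9, and the 5 nearest profiles. Ctsc, Srgn and Cebpa were named outside that rule, for their roles, after their values were seen. Cxcr2 was also named outside it, for its call with the replicate block, and Hbb-bs as the other listed beta globin, after its values were seen. Some genes stand in more than 1 list (Prss57, Mcpt8, Trem1, Ms4a1, Ms4a2, Cma1 and Gzmb). Similar sequences were searched with blastn 2.17.0.

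Same-number libraries deviated together for K36M and rtTA (correlations of deviations of 0.414, 0.369 and 0.377 across genes). They were treated as paired only in the alternative fit with the replicate block. The main fit had no block, so SEs, adjusted p and counts given without mention of the block are unpaired. In K36M against rtTA the main fit called 194 genes and the fit with the block 301. The pairing comes from the data and not from the labels. For the other comparisons the correlations ran from -0.171 to 0.162 and no pairing was taken. Alternatives were other pseudocounts, filters, scalings, library weights, a replicate block, a fit to only the groups compared, and leaving out each library.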

Additional observations from a re-analysis of the deposited data

How the results depend on the processing

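Over 483 alternative fold changes of the 9 genes, all moved by less than the residual SD of the gene and no called value changed sign. With 3 libraries per group, leaving out 1 library cannot move an estimate by more than that SD. The replicate block, the fit to only the groups compared and leaving out a library of the third group cannot move it at all. That measure therefore shows no stability. Leaving out K36M 2, the lowest K36M library for all 9, raised each K36M estimate, as it must. Calls depended on the setting. K9M against rtTA gave 15 called genes, and 4 with no filter, 8 with quantile normalization, 62 with library weights and 6 to 36 without 1 library. K36M against rtTA gave 194, and 76 with no filter, 129 with a filter of RPKM of at least 5, 25 with only the 2 groups compared, 301 with the replicate block and 10 to 402 without 1 library (10 without K36M 1, 402 without K36M 2). K36M against K9M gave 326, and 118 with no filter, 589 with library weights, 595 with the replicate block and 15 to 509 without 1 library (15 without K36M 3, 509 without K36M 2). With no filter limma called 0 of the 9 genes in any comparison, with 25824 genes tested. With the filter at 5 Fcnb was not tested. The cause of the other differences was not tested.

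The paired fit with the replicate block changed the call of Prtn3 in K36M against K9M and, in K36M against rtTA, of Bzrap1, Tyrobp and Cx3cr1 among the listed genes; in K36M against K9M, where no pairing was taken, it added calls of listed genes and lost none outside the 9. RPKM keeps no exact depth, so no counting interval is given; Fcnb and Trem3 rest on the fewest reads.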
